A study of Mus musculus with 12 samples.

Results

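Disallowed genes are transcribed in most tissues and kept silent in mature β-cells. The 10 members followed here are Ldha, Slc16a1, Hk1, Acot7, Oat, Rest, Mgst1, Igfbp4, Zyx and Smad3, taken by symbol from the 52962 gene identifiers of the count table, with 1 row for each. Each was compared across β-cells and non-β-cells sorted at 4 and 8 weeks of age from islets of NOD females, which develop autoimmune diabetes spontaneously. Each of the 4 groups had 3 samples, all of NOD genotype, with no other allele or treatment named. Per the study's methods and figure legends, islets were cultured overnight, dispersed with trypsin, and sorted by forward scatter, endogenous fluorescence and absence of CD45, and each sample was a pool of mice, which the sample labels do not state.

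The silencing of these genes is best understood for fuel use. Lactate dehydrogenase A (Ldha) turns pyruvate into lactate, and the monocarboxylate transporter MCT1 (Slc16a1) carries both across the plasma membrane. With little of either, a β-cell sends pyruvate from glucose to its mitochondria and does not release insulin when pyruvate or lactate rises in the blood. Hexokinase 1 (Hk1) phosphorylates glucose at low concentrations. The other members act in acyl-CoA hydrolysis (Acot7), ornithine metabolism (Oat), repression of neuronal genes (Rest), glutathione conjugation in membranes (Mgst1), binding of insulin-like growth factors (Igfbp4), focal adhesions (Zyx) and transforming growth factor β signalling (Smad3).

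Ldha and Slc16a1 moved furthest between ages in β-cells, so their promoters are shown. The windows are the 250 bases before a RefSeq start site in GRCm38.p6, at chr7:46845554-46845803 for Ldha and chr3:104638414-104638663 for Slc16a1, both on the plus strand. Capitals mark ACGTG on either strand, 1 form of the core of the site bound by hypoxia-inducible factors. Other forms of that core were not searched for. ACGTG is here often part of the palindrome CACGTG, the E-box shared with many other factors, which reads as ACGTG on both strands.
Ldha: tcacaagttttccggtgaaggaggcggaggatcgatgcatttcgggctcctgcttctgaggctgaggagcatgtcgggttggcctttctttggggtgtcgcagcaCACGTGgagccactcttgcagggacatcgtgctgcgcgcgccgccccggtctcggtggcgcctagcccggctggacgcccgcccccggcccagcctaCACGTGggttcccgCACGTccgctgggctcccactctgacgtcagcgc
Slc16a1: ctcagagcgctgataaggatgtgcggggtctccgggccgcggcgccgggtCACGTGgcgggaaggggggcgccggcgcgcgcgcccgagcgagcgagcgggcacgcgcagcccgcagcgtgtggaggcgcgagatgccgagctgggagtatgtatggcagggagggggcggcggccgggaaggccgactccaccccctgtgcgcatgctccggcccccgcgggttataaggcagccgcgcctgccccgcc
The Ldha window held 3 separate places with ACGTG, the nearest starting 34 bases before the start site. The Slc16a1 window held 1 such place, beginning 200 bases before it. ACGTG occurred in 16.6% of 32851 promoter windows of this length, and CACGTG in 6.02%. A second Ldha window and the windows of the other 7 members with a RefSeq entry, 10 in all, held no ACGTG in these letters.

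Transcript levels are given as CPM, the share of a sample's estimated counts on a scale common to all libraries, after scaling with TMM factors (trimmed mean of M-values). Changes are log2 differences from 1 limma-voom model of all samples, each with its standard error (SE), and p-values are two-sided and adjusted by Benjamini-Hochberg over 15598 tested genes, with 0.05 as the threshold. Total estimated counts ran from 13755106 to 27040652 per sample. The 4-week samples numbered 3 stood furthest from the others of their groups. A chi-square comparison of counts per degree of freedom gave 82.2 and 88.5 for that β-cell sample against the other two and 25 between those. In 4-week non-β-cells the values were 36.9 and 44.7 against 12.1. Sample 1 of the 8-week non-β-cells also stood apart, with 22.9 and 32 against 9.33. Both 4-week samples numbered 3 also had the highest 4-week Ldha of their fraction, and results are given without them where a call changed.

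The fractions carried the markers of their labels. Summed CPM of 9 β-cell markers was 46700 to 114000 in β-cells against 2910 to 5900 in the non-β fraction, and that of 7 α-cell markers was 1610 to 9570 against 107000 to 136000. Within β-cells the α-cell sum fell from 5740 to 9570 at 4 weeks to 1610 to 2660 at 8 weeks. The 5 δ- and PP-cell markers summed to 641 to 1460 in β-cells against 13200 to 20700 in the non-β fraction. Of 8 leukocyte markers 2 passed the filter, Cd79a and Cd68, the latter a lysosomal gene at 48.8 and 69.6 CPM in β-cells, while Ptprc, which encodes CD45, averaged 0.454 CPM or less in each group. Other cell types moved with age. In non-β-cells the 8 endothelial markers went from 49.8 to 93.8 at 4 weeks to 388 to 1060 at 8 weeks, and the 8 mesenchymal markers from 107 to 305 to 682 to 1060. In β-cells the same sums were 6.86 to 16.1 and then 12.9 to 16.4, and 4.28 to 15.3 and then 26.2 to 53.3. The 7 acinar markers summed to 82.4 to 171 at 4 weeks and 387 to 835 at 8 weeks in β-cells, and to 1.91 to 46.8 and then 146 to 658 in the non-β fraction. The 6 duct markers summed to 833 to 1170 and then 1650 to 1780 in β-cells, and to 581 to 777 and then 1950 to 2170 in the other fraction. Of these Spp1 went from 99.2 to 943 and from 366 to 1580 CPM on average. In β-cells Krt7 went from 857 to 740 and Krt19 from 9.63 to 8.27 CPM on average. Sox9, Cftr and Muc1 were higher there at 8 weeks, at no more than 8.41 CPM on average. The 5 Schwann-cell markers summed to 9.57 to 19.2 in every sample.

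β-cells had less of most members than non-β-cells. At 4 weeks 8 of 10 were lower and Slc16a1 and Zyx did not pass the test, against 23.7% of all tested genes lower and 24.9% higher. At 8 weeks all 10 were lower, against 25.6% of tested genes lower and 23.6% higher. The median log2 difference of the members was -2.78 at 4 weeks and -3.12 at 8 weeks, with -4.94e-05 and 0.0138 over all tested genes. Rest and Mgst1 were under 1 CPM in every β-cell sample and entered the test through non-β-cells alone, so they had to be lower in β-cells. The counts and medians above include them. Of the other 8, 6 were lower at 4 weeks and 8 at 8 weeks. In bulk samples such as these, fewer cells of a type and less RNA per cell cannot be told apart.

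**Figure D1:**
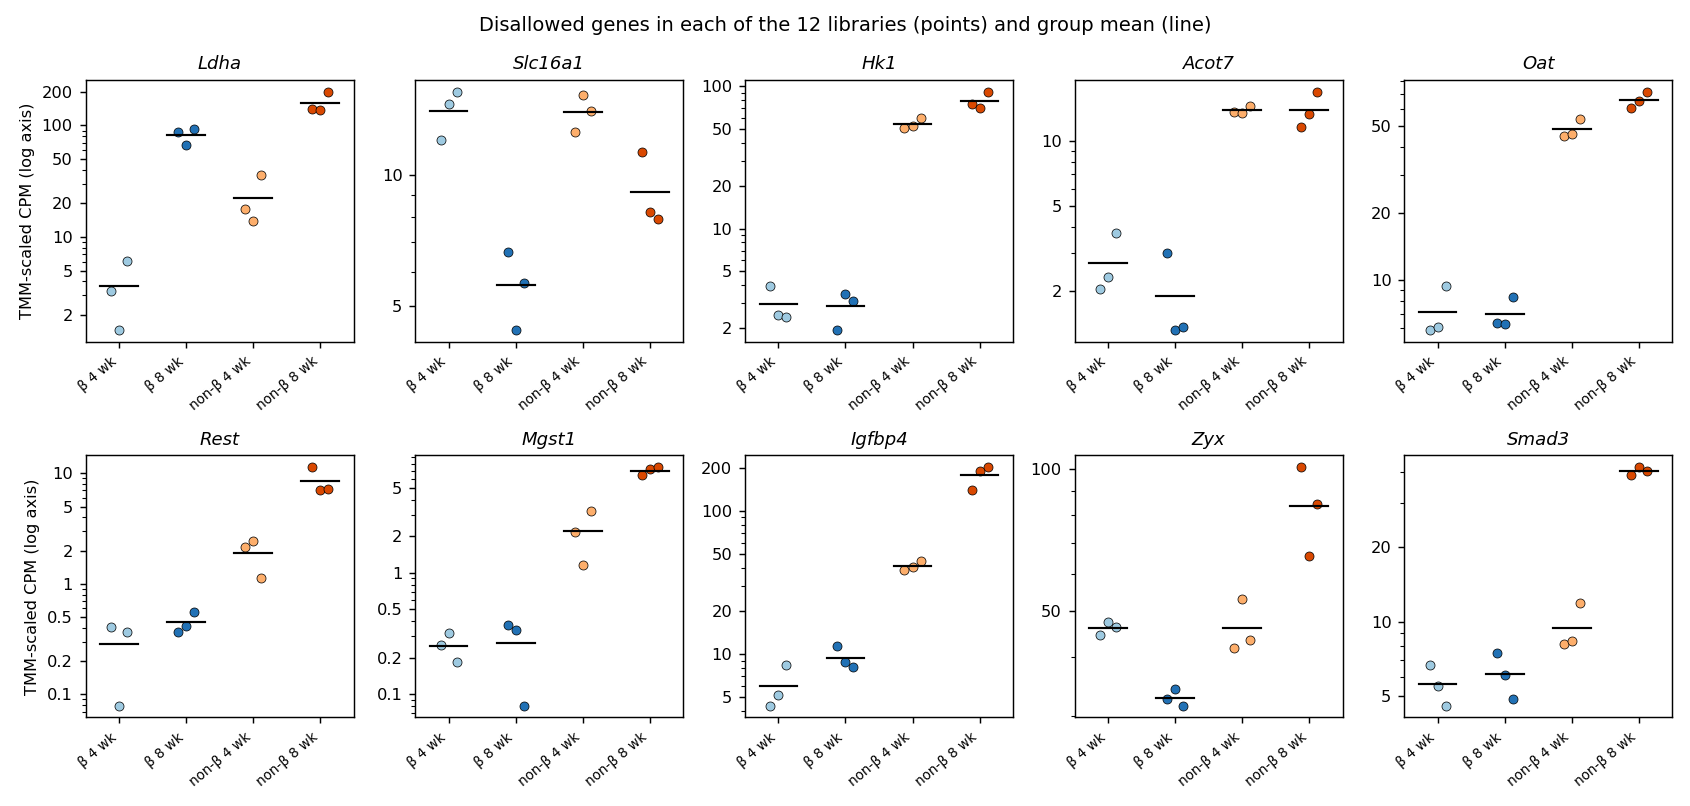
TMM-scaled CPM of the 10 members in each of the 12 samples, on log axes that differ between panels, with points for samples and a line for the mean of each group of 3. Ldha is the member whose β-cell samples moved from 1.47 to 6.1 CPM up to 67.5 to 93.6 CPM, whereas Hk1, Oat and Rest stayed far below their non-β-cell levels at both ages.

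With age 1 member rose in β-cells (Ldha) and 2 fell (Slc16a1 and Zyx), against 8.59% of tested genes higher and 9.35% lower at 8 weeks. In non-β-cells 8 members rose and Slc16a1 and Acot7 did not pass the test, against 11.6% of tested genes higher and 4.8% lower. The median member change was 0.00142 for β-cells, 1.31 for non-β-cells, beside 0.0175 and 0.0123 over all tested genes. The difference between the age changes, tested as an age by cell type interaction, passed for 3 of 10 members (Igfbp4, Zyx and Smad3), against 5.13% of tested genes. In each of the 3 the β-cell change was the lower one.

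**Figure D2:**
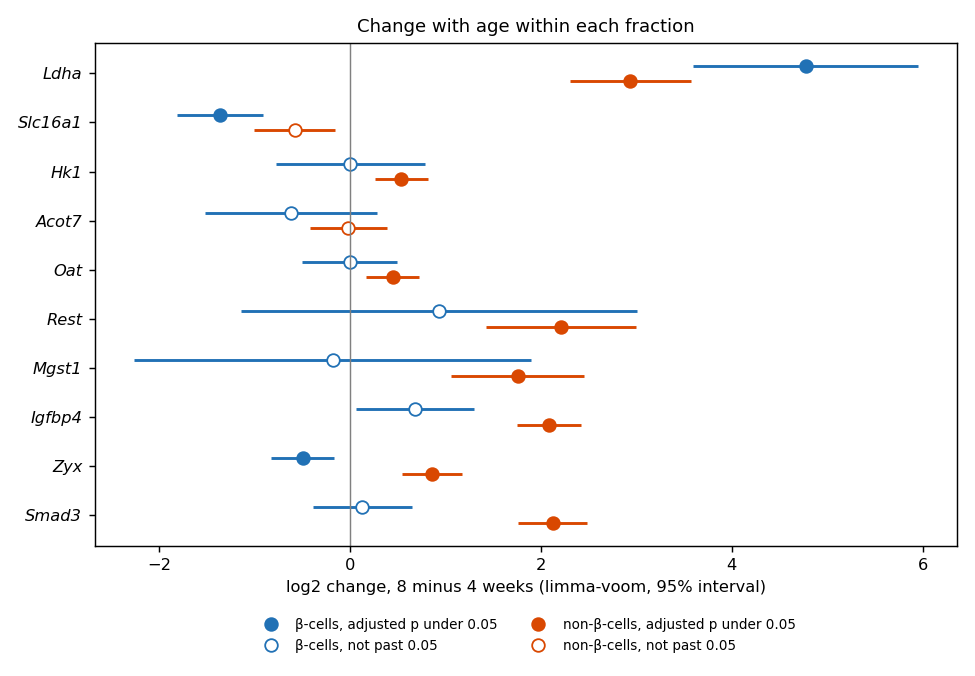
Log2 change from 4 to 8 weeks of each member in β-cells (blue) and non-β-cells (orange) with its 95% interval from limma-voom, filled where the adjusted p was under 0.05. Ldha rose by 4.77 in β-cells, by 2.94 in non-β-cells, and of the other 7 members called in non-β-cells Zyx fell in β-cells and 6 have open β-cell symbols.

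Ldha (ENSMUSG00000063229, GRCm38 chromosome 7, 46841475 to 46855627) had the largest β-cell change of the members. In β-cells it had 3.31, 1.47 and 6.1 CPM at 4 weeks and 86.9, 67.5 and 93.6 CPM at 8 weeks. Non-β-cells had 17.7, 14 and 35.7 CPM at 4 weeks and 140, 138 and 201 CPM at 8 weeks. No pair of groups overlapped, and the order from low to high was 4-week β-cells, 4-week non-β-cells, 8-week β-cells and 8-week non-β-cells. The change was 4.77 ± 0.547 (SE, adjusted p = 8.36e-05) in β-cells and 2.94 ± 0.294 (adjusted p = 1.95e-05) in non-β-cells. The interaction of 1.84 ± 0.621 did not pass (adjusted p = 0.12), though it did in 2 of 22 alternatives. These were sample quality weights (1.91, adjusted p = 0.026) and replicate number as a block (1.70, adjusted p = 0.000832). What the replicate numbers mark is not known. Without the 4-week samples numbered 3 the β-cell change was 5.28 (adjusted p = 8.67e-05).

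β-cells thus went from 16.1% of the non-β-cell Ldha level at 4 weeks to 51.7% at 8 weeks. Over the same ages Gcg, the glucagon gene of α-cells, went from 6.36% to 1.62% of its non-β-cell level. Ppy, of PP-cells, went from 3.77% to 1.32%, while Sst, of δ-cells, stood at 9.35% and 8.34%. The β-cell level was lower at 4 weeks by 2.78 (adjusted p = 0.00143) and at 8 weeks by 0.95 (adjusted p = 0.00771), the latter passing in limma-voom and missing with edgeR (adjusted p = 0.0562) and DESeq2 (adjusted p = 0.0972). Acinar, duct and mesenchymal marker sums were also higher at 8 weeks in both fractions, and the endothelial sum in non-β-cells. The part of these cell types in the Ldha rise was not tested. In β-cells the duct sum was higher through Spp1, while Krt7 and Krt19 were lower. Per kb of exon, Ldha moved in β-cells from the 26.4th to the 87.1st percentile of 15394 tested genes with a length.

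Ldha has many processed copies, 21 annotated genes that match its transcripts at 88.5% to 95.9% identity. Of these 10 had any count, and their summed level averaged 0.139 CPM in 4-week β-cells and 0.246 CPM at 8 weeks, beside 3.63 ± 2.33 and 82.6 ± 13.6 CPM (SD, n = 3) for Ldha itself. Adding them gave a ratio of 8-week to 4-week means of 22 in β-cells, compared with 22.8 for Ldha alone.

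The partner subunit Ldhb, which favours the reverse reaction, did not pass the test. It had 3.66, 3.09 and 3.94 CPM in 4-week β-cells, then 4.63, 3.92 and 3.89 CPM, a change of 0.22 with a 95% interval of -0.37 to 0.81 (adjusted p = 0.62). Per kb, Ldha made up 30.2% ± 12 of Ldha plus Ldhb in 4-week β-cells and 90.3% ± 1.47 at 8 weeks (SD, n = 3), and 74.2% ± 12.3 and 95.3% ± 2.28 in non-β-cells. The shares of the groups did not overlap in either fraction, with p = 0.1 in an exact two-sided permutation test, the smallest that 3 against 3 allows.

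Slc16a1 (ENSMUSG00000032902, chromosome 3, 104638668 to 104658462) went the opposite way. In β-cells it had 12, 14.5 and 15.5 CPM at 4 weeks and 6.66, 4.41 and 5.66 CPM at 8 weeks. Non-β-cells had 12.5, 15.2 and 14 CPM at 4 weeks and 11.3, 8.22 and 7.91 CPM at 8 weeks. The ages did not overlap in either fraction. The fall in β-cells was -1.36 ± 0.208 (adjusted p = 0.000729), and the change of -0.58 ± 0.195 in non-β-cells did not pass (adjusted p = 0.0617), though it did without 8-week non-β-cell sample 1 (adjusted p = 0.0387), with total-count scaling (0.046) and with sample quality weights (0.0276). The interaction was -0.78 ± 0.285 (adjusted p = 0.149).

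The fractions overlapped in Slc16a1 at 4 weeks, with a difference of 0.02 and a 95% interval of -0.35 to 0.39. At 8 weeks β-cells were lower by 0.76 (adjusted p = 0.0144). That call was lost without 8-week β-cell sample 2 (adjusted p = 0.0777) or 8-week non-β-cell sample 1 (adjusted p = 0.0919).

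Slc16a3, which encodes the lactate exporter MCT4, rose with age in both fractions. It had 1.37, 0.832 and 1.74 CPM in 4-week β-cells and 20.2, 18.8 and 24.9 CPM at 8 weeks, and 2.95, 2.2 and 4.09 CPM then 34.3, 26.7 and 42.6 CPM in non-β-cells. The changes were 4.08 (adjusted p = 9.2e-05) and 3.52 (adjusted p = 8.5e-06), with no overlap between ages. Per kb, Slc16a1 made up 90.5% ± 2.67 of the 3 transporter transcripts Slc16a1, Slc16a3 and Slc16a7 in 4-week β-cells and 23.5% ± 3.81 at 8 weeks (SD, n = 3). In non-β-cells the share was 71.3% ± 5.85 and then 21.8% ± 4.45. The exact permutation p was 0.1 for each age contrast and 0.6 between the fractions at 8 weeks.

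**Figure D3:**
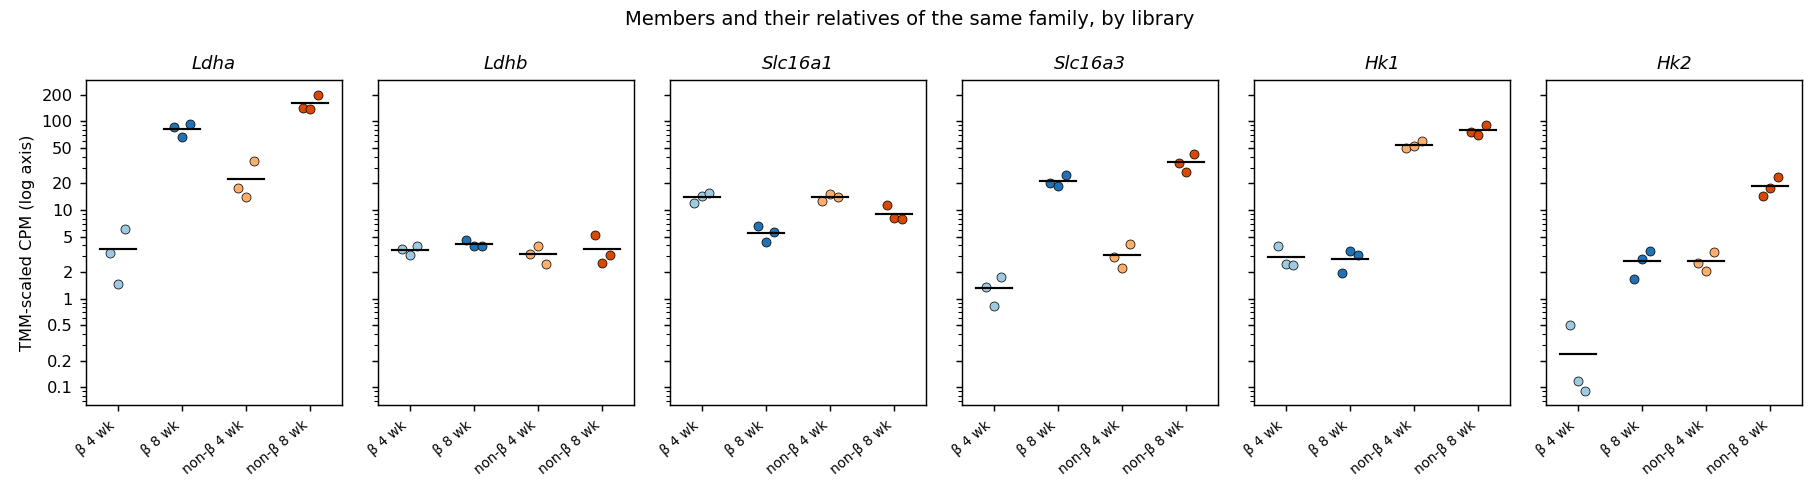
TMM-scaled CPM on a shared log axis of Ldha, Slc16a1 and Hk1 beside a relative of each, in all 12 samples, with a line for each group mean. Ldha, Slc16a3 and Hk2 are higher at 8 than at 4 weeks in both fractions without overlap, Slc16a1 is lower, and Ldhb overlaps between ages.

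Around these reactions, 17 genes of lactate and pyruvate handling other than the members were tested. In β-cells 5 rose and 2 fell with age (median 0.0614), and in non-β-cells 3 rose and 1 fell (median 0.181). The shares of all tested genes were 8.59% higher and 9.35% lower in β-cells, and 11.6% and 4.8% in non-β-cells. Pdk1, a kinase that inhibits pyruvate dehydrogenase, rose from 23.6 ± 3.75 to 58.5 ± 10.1 CPM in β-cells (SD, n = 3; change 1.30, adjusted p = 0.00046) and by 0.99 in non-β-cells (adjusted p = 0.0067). Of 11 targets of hypoxia-inducible factor 1, Pdk1 counted again among them, 8 rose in β-cells with a median of 0.789. In non-β-cells 7 rose and 1 fell, and Car9 among the 7 entered the test through 8-week non-β-cells alone. Lowest in adjusted p in β-cells were Bnip3, a mitophagy receptor, with 1.35 (adjusted p = 6e-05), Egln1, an oxygen-sensing prolyl hydroxylase, with 0.77 (adjusted p = 0.00014), and Pdk1. Ankrd37 and Ndrg1 on the same list had changes of -0.01 and -0.18 in β-cells.

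Hk1 (ENSMUSG00000037012, chromosome 10, 62268855 to 62379908) separated the fractions more than any other member at 4 weeks. β-cells had 3.97, 2.46 and 2.39 CPM at 4 weeks and 1.94, 3.47 and 3.09 CPM at 8 weeks. Non-β-cells had 50.7, 53.1 and 60.2 CPM and then 75.7, 70.4 and 91.9 CPM. The β-cell ages overlapped, and every β-cell sample was below every non-β-cell sample. The difference between fractions was -4.27 ± 0.276 at 4 weeks (adjusted p = 7.52e-08) and -4.80 ± 0.269 at 8 weeks (adjusted p = 1.74e-08). The Hk1 level in β-cells was 5.37% of that in non-β-cells at 4 weeks and 3.57% at 8 weeks. At both ages this lay within the range of the Gcg, Ppy and Sst percentages given above.

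The β-cell change of Hk1 with age was 0.00 with a 95% interval of -0.78 to 0.79. In non-β-cells it rose by 0.54 ± 0.13 (adjusted p = 0.0113). That call was lost with edgeR (adjusted p = 0.0903) and without 4-week non-β-cell sample 1 (0.0823) or 2 (0.0604) or 8-week non-β-cell sample 3 (0.0547). Hk1 shares 157 exonic bases with the antisense gene Hk1os, which had at most 28 counts in a sample.

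Hk2, another low-concentration hexokinase that is counted among disallowed genes, had 0.509, 0.119 and 0.0917 CPM in 4-week β-cells and 1.67, 2.83 and 3.45 CPM at 8 weeks. That rise of 3.73 (adjusted p = 0.02) was lost without any one of the 4-week β-cell samples (adjusted p up to 0.0788), and the rise of 2.80 in non-β-cells (adjusted p = 8.8e-05) was kept.

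**Figure D4:**
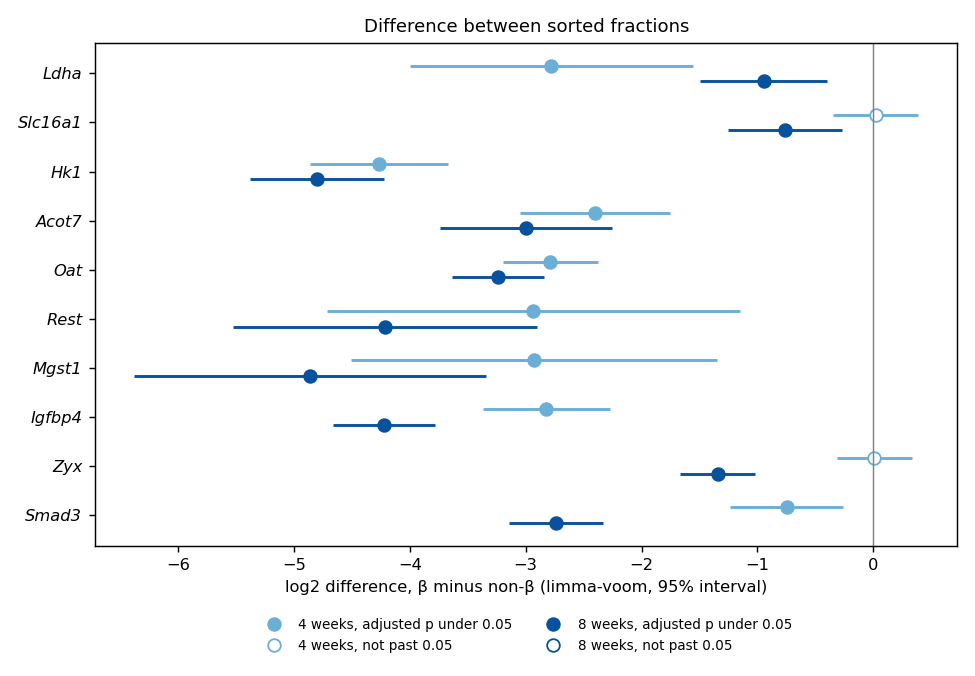
Log2 difference of each member between β-cells and non-β-cells at 4 weeks (light) and 8 weeks (dark) with 95% intervals from limma-voom, filled where the adjusted p was under 0.05. Hk1 was lower in β-cells by 4.27 and 4.80, whereas Slc16a1 and Zyx lay at 0.02 and 0.01 at 4 weeks and below 0 at 8 weeks.

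Oat (ENSMUSG00000030934, chromosome 7, 132557478 to 132576398) encodes the mitochondrial aminotransferase that interconverts ornithine and glutamate semialdehyde. β-cells had 5.9, 6.06 and 9.36 CPM at 4 weeks and 6.34, 6.29 and 8.3 CPM at 8 weeks, and non-β-cells 44.9, 45.8 and 54 CPM and then 60.6, 64.9 and 71.6 CPM. β-cell samples of the ages overlapped and all lay below the non-β-cell samples. β-cells were lower by 2.79 at 4 weeks (adjusted p = 1.21e-07) and by 3.24 at 8 weeks (adjusted p = 1.94e-08), and their age change was 0.00 (95% interval -0.50 to 0.50).

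The non-β-cell rise of Oat, 0.45 ± 0.129 (adjusted p = 0.0296), was lost in 9 of 23 alternative analyses. These included edgeR (0.111), DESeq2 (0.069) and the omission of β-cell 8-week sample 3 (0.0524) or non-β-cell 4-week sample 1 (0.149) or 2 (0.122) or 8-week sample 2 (0.065) or 3 (0.112). Among 6 tested genes of ornithine and proline metabolism, 2 rose and 2 fell in non-β-cells with age (median 0.108), against 11.6% and 4.8% of tested genes. In β-cells 2 rose (median 0.371), against 8.59%. Pycr1, which makes proline, fell by 1.32 in non-β-cells (adjusted p = 0.00016), and Arg1, which makes ornithine, was lower in β-cells by 3.85 at 4 weeks (adjusted p = 2.3e-05).

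Acot7 (ENSMUSG00000028937, chromosome 4, 152178134 to 152271855) encodes a cytosolic acyl-CoA thioesterase. β-cells had 2.04, 2.34 and 3.72 CPM at 4 weeks and 3.01, 1.32 and 1.36 CPM at 8 weeks, and non-β-cells 13.6, 13.5 and 14.6 CPM and then 11.6, 13.4 and 17 CPM. The fractions did not overlap and the ages did. β-cells were lower by 2.40 at 4 weeks (adjusted p = 3.06e-05) and by 3.00 at 8 weeks (adjusted p = 1.26e-05). The age changes were -0.61 in β-cells (95% interval -1.51 to 0.28) and -0.02 in non-β-cells (-0.42 to 0.39). Other acyl-CoA thioesterases were counted where entry into the test did not rest on the fraction where they were higher. Of these 5, 2 were higher and 1 lower in β-cells at 4 weeks, against 24.9% and 23.7% of all tested genes.

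Rest (ENSMUSG00000029249, chromosome 5, 77265491 to 77286432) was among the lowest members in β-cells. It had 0.407, 0.0793 and 0.367 CPM at 4 weeks and 0.37, 0.415 and 0.562 CPM at 8 weeks, from 2 to 13.9 estimated counts a sample. Non-β-cells had 2.14, 2.45 and 1.13 CPM at 4 weeks and 11.3, 7.02 and 7.24 CPM at 8 weeks. The non-β-cell ages did not overlap and all lay above the β-cell samples. Non-β-cells rose by 2.21 ± 0.364 (adjusted p = 0.000906), and the β-cell change of 0.93 had a 95% interval of -1.14 to 3.01. β-cells were lower by 2.94 at 4 weeks and by 4.22 at 8 weeks. As Rest entered the test through non-β-cells alone, this direction was fixed in advance and no p-value is given.

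Of 10 neuronal and secretory genes known to be held down by Rest, 6 were higher and 1 lower in β-cells at 4 weeks (median 0.569). At 8 weeks 8 were higher and 1 lower (median 0.711). The shares of all tested genes were 24.9% higher and 23.7% lower at 4 weeks, and 23.6% and 25.6% at 8 weeks. Gjd2, the gap junction gene of β-cells, averaged 114 ± 15.7 CPM in 4-week β-cells, with 24.1 ± 2.23 CPM in the non-β fraction (SD, n = 3; difference 2.24, adjusted p = 2e-08). It fell with age in non-β-cells by 0.74 (adjusted p = 0.0054). In all 2 of the 10 fell there (median -0.0371), against 4.8% of tested genes. Among 7 Rest cofactors, 1 rose and 1 fell with age in β-cells (median 0.0834), against 8.59% and 9.35% of tested genes. In non-β-cells 1 rose (median 0.182), against 11.6%.

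Mgst1 (ENSMUSG00000008540, chromosome 6, 138140316 to 138156755) encodes a membrane glutathione transferase of the endoplasmic reticulum and mitochondria. β-cells had 0.254, 0.317 and 0.183 CPM at 4 weeks and 0.37, 0.339 and 0.0802 CPM at 8 weeks, from 2 to 9 counts a sample. Non-β-cells had 2.18, 1.17 and 3.25 CPM and then 6.41, 7.17 and 7.45 CPM. The non-β-cell ages did not overlap, and the β-cell ages did. Non-β-cells rose by 1.76 ± 0.322 (adjusted p = 0.00199), and the β-cell change of -0.18 had a 95% interval of -2.26 to 1.90. The difference between fractions was -2.93 at 4 weeks and -4.86 at 8 weeks. Its direction was fixed by the entry of Mgst1 into the test through non-β-cells alone, and no p-value is given. Mgst3, a relative, stood at 9.76 ± 2.28 CPM in 4-week β-cells, with 10.3 ± 1.81 CPM in the non-β fraction (SD, n = 3). Of 3 tested relatives 2 rose with age in non-β-cells (median 1.76), against 11.6% of tested genes.

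Igfbp4 (ENSMUSG00000017493, chromosome 11, 99041244 to 99054392) had 4.38, 5.23 and 8.35 CPM in 4-week β-cells, then 11.4, 8.86 and 8.18 CPM. Non-β-cells had 38.6, 40.5 and 44.5 CPM and then 140, 189 and 201 CPM. The non-β-cell ages were far apart, while the β-cell ages overlapped at 8.35 and 8.18 CPM. Non-β-cells rose by 2.08 ± 0.157 (adjusted p = 2.2e-06), and the β-cell change of 0.68 did not pass (adjusted p = 0.12), though it did with DESeq2 (0.65, adjusted p = 0.0256) and with sample quality weights (0.95, adjusted p = 0.00441). The difference between fractions went from -2.82 at 4 weeks (adjusted p = 1.59e-06) to -4.22 at 8 weeks (adjusted p = 4.43e-09).

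The interaction for Igfbp4, -1.40 ± 0.325 (adjusted p = 0.0253), was lost without β-cell 4-week sample 2 (0.0529) or 3 (0.0918), β-cell 8-week sample 2 (0.0712) or 3 (0.0767), or non-β-cell 4-week sample 1 (0.0565). It was also lost without both 4-week samples numbered 3 (0.0801). Stretches of up to 223 bases of its transcripts match 328 other genes, and how the counting divided reads there is not known. Of 6 tested genes of the insulin-like growth factor system, 2 rose in non-β-cells (median 0.5), Igfbp3 from 5.61 ± 4.68 to 104 ± 34.3 CPM (adjusted p = 5.1e-05) and Igfbp5 from 126 ± 7.25 to 239 ± 54.1 CPM (SD, n = 3; adjusted p = 0.00092). In β-cells 1 rose and 1 fell (median 0.533). The shares of all tested genes were 11.6% higher in non-β-cells, and 8.59% higher and 9.35% lower in β-cells.

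Smad3 (ENSMUSG00000032402, chromosome 9, 63646767 to 63757994) carries signals of transforming growth factor β from the receptor to the nucleus. β-cells had 6.67, 5.51 and 4.59 CPM at 4 weeks and 7.49, 6.07 and 4.89 CPM at 8 weeks, and non-β-cells 8.11, 8.37 and 11.9 CPM and then 39, 41.8 and 40.4 CPM. The 8-week non-β-cell samples stood above all others, and the β-cell ages overlapped. Non-β-cells rose by 2.12 ± 0.169 (adjusted p = 3.18e-06) and β-cells changed by 0.13 (95% interval -0.39 to 0.65), an interaction of -1.99 ± 0.293 (adjusted p = 0.00158).

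β-cells had less Smad3 by 2.74 at 8 weeks (adjusted p = 1.1e-07). At 4 weeks the difference of -0.75 (adjusted p = 0.0153) was lost without 4-week β-cell sample 3 (adjusted p = 0.0573) or both 4-week samples numbered 3 (-0.45, adjusted p = 0.127). Of 12 other genes of this pathway, 6 rose with age in non-β-cells (median 0.739), against 11.6% of tested genes. In β-cells 1 rose and 3 fell (median -0.0294), against 8.59% and 9.35%. The interaction passed for 4, against 5.13% of tested genes, all with the lower change in β-cells. The ligand gene Tgfb1 rose in non-β-cells by 2.10 (adjusted p = 0.00014) and the receptor gene Tgfbr2 by 1.94 (adjusted p = 0.00022).

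Zyx (ENSMUSG00000029860, chromosome 6, 42349630 to 42360213) encodes zyxin, which binds actin regulators at focal adhesions. β-cells had 44.5, 47.6 and 46.4 CPM at 4 weeks and 32.6, 34.2 and 31.6 CPM at 8 weeks, and non-β-cells 41.9, 53.2 and 43.6 CPM and then 101, 65.4 and 84.5 CPM. The fractions overlapped at 4 weeks and moved apart in opposite directions, with no overlap of ages in either. At 4 weeks the difference was 0.01 (95% interval -0.31 to 0.33) and at 8 weeks it was -1.34 ± 0.15 (adjusted p = 9.55e-06). In non-β-cells Zyx rose by 0.86 ± 0.146 (adjusted p = 0.00118), and the interaction was -1.35 ± 0.212 (adjusted p = 0.00253).

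The β-cell fall of Zyx, -0.49 ± 0.153 (adjusted p = 0.0406), was lost in 9 of 23 alternatives, among them each omission of a single β-cell sample (adjusted p 0.059, 0.0814 and 0.069 without 4-week samples 1, 2 and 3, and 0.0985, 0.0874 and 0.105 without 8-week samples 1, 2 and 3) and that of 8-week non-β-cell sample 3 (0.0548). Without both 4-week samples numbered 3 it was -0.49 (adjusted p = 0.0549). Zyx shares 236 exonic bases with Epha1 on the opposite strand, which had 45.15 to 113.6 counts. Among 9 partners and relatives of zyxin, 4 rose with age in non-β-cells (median 0.543), against 11.6% of tested genes. In β-cells 1 rose and 1 fell (median 0.254), against 8.59% and 9.35%. Flna, an actin crosslinker, rose in non-β-cells by 1.5 (adjusted p = 0.00017) and so did Trip6, a zyxin relative (by 1.5, adjusted p = 0.0022).

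The non-β-cell rises of Ldha, Hk1, Oat, Igfbp4, Smad3, Zyx, Mgst1 and Rest went with rises of endothelial and mesenchymal markers. All 8 markers of each kind rose in the same samples. Among these markers Tie1 and Lum entered the test through the 8-week non-β-cell samples alone. The summed acinar and duct markers given above were higher in them as well. The part of these cell types in the rises was not tested.

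**Figure D5:**
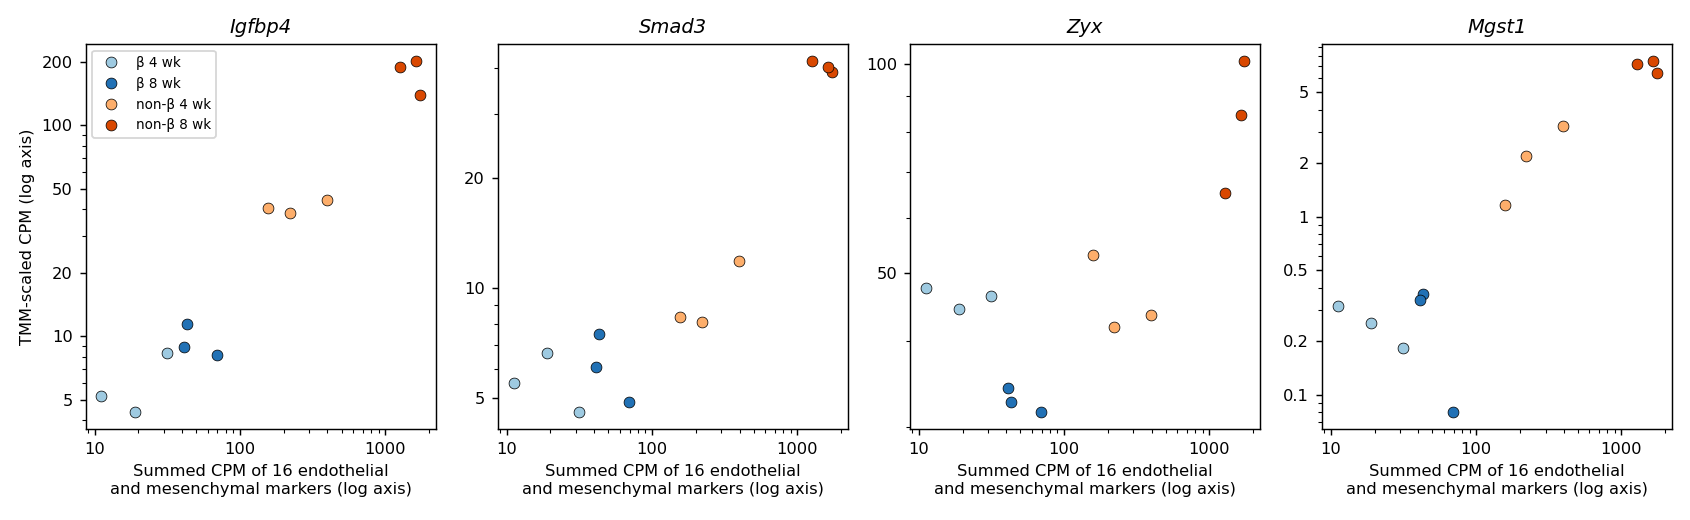
TMM-scaled CPM of 4 members against the summed CPM of 16 endothelial and mesenchymal markers in each of the 12 samples, both axes logarithmic. The 8-week non-β-cell samples are highest on both axes in each panel, and the 8-week β-cell samples are lowest for Zyx.

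Beyond the 10 members, 22 further genes reported as disallowed were listed and 21 tested. Of these 8 passed the filter only through non-β-cells, where they were higher, and are not counted between the fractions. Of the other 13, β-cells had 6 lower and 2 higher at 4 weeks, against 23.7% and 24.9% of all tested genes, and 8 lower and 1 higher at 8 weeks, against 25.6% and 23.6%. With age 8 rose in non-β-cells among the 18 genes whose entry did not rest on the age where they were higher, against 11.6% of tested genes. In β-cells 2 of 21 rose and 2 fell, against 8.59% and 9.35%. The median there was 0.0717, or 0.198 without the 2 genes that averaged no more than 3 counts a sample at both ages. The lowest adjusted p in non-β-cells belonged to Tgm2, a transglutaminase, which went from 8.09 ± 2.83 to 79.4 ± 15.7 CPM (adjusted p = 1.1e-06), Tns1, a focal adhesion protein, from 7.19 ± 0.774 to 79.4 ± 27.1 CPM (adjusted p = 3e-06), and Zfp36l1, an RNA-decay factor, from 4.94 ± 2.69 to 65.4 ± 20.6 CPM (SD, n = 3; adjusted p = 4.1e-05). In β-cells Tgm2 and Hk2 rose, and Parp3 and Gas6 fell.

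The genes whose log2 CPM followed a member most closely over the 12 samples are given as a description, since samples of a group and fraction share most of what sets these values. For Ldha they were Spp1 (Pearson r = 0.993), Pdyn (0.982) and AI506816 (0.976), and for Slc16a1 they were Kbtbd2 (0.951), Snhg15 (0.944) and Rnf146 (0.941). For Hk1 they were Oxtr (0.993), Gng2 (0.991) and Srgap2 (0.991), for Acot7 Sesn1 (0.987), Ikbip (0.986) and Rcn3 (0.985), and for Oat Rhob (0.998), Pyy (0.997) and Actb (0.994). Rest was followed by Ddx5, Hspg2 and Gstz1 (each 0.972) and Mgst1 by Cdc42ep4 (0.981), Rap1gap (0.979) and Brd2 (0.977). Igfbp4 was followed by Tubb6 (0.99) and Vgll4 (0.986), Zyx by Calu (0.969), Tnfrsf10b (0.959) and Sidt2 (0.958), and Smad3 by H2-T23 (0.979), Itpkc (0.976) and Pla2g6 (0.971). Among the members themselves Ldha and Slc16a1 had r = -0.653.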

How the data were processed

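RNA of 12 samples was sequenced after low-input, strand-specific total RNA library preparation. Per the study's methods, the authors quality-filtered the reads (fastp), pseudoaligned them to Ensembl mouse transcripts on GRCm38 (kallisto) and collapsed transcripts to genes (tximport), with versions not given in the sources used here. The authors deposited expected counts (estimated counts) per gene, unscaled, which were rounded to whole numbers. Symbols and coordinates, counted from 1, came from GENCODE M21 on the same build, in which 51916 of 52962 identifiers had a symbol.

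Genes over 1 CPM in at least 3 samples were kept (15598). Samples were scaled by TMM (edgeR 4.0.16) and a model of 4 group means was fitted by limma-voom (R 4.3.3 with limma 3.58.1), following the study's methods. The correlations over samples used log2 CPM with a prior count of 2. Alternatives were DESeq2 1.42.0 (its test or its size factors), the quasi-likelihood test of edgeR, total-count scaling, other filters, quality weights, only the groups compared, a replicate block, removal of hormone and mitochondrial genes, and omission of samples. The model was tested on simulated data. Similar genes were found with blastn 2.17.0 (at least 88% identity over 150 bases).

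The members and lists were chosen with earlier results of these data known. The text names all 10 members, for each related list up to 3 genes of lowest adjusted p in a comparison and partners of members, and the 3 genes closest in pattern with a mean log2 CPM of at least 3. Some genes that this rule names are not reported here. The labels number replicates and do not name separate cultures or mice, so p-values measure the spread between these samples. RefSeq promoter windows were found for 9 of 10 members. CPM of 1 count was 0.0377 to 0.0747, and precision at low counts is limited accordingly.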

Additional observations from a re-analysis of the deposited data

Results flagged for a closer look

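The age change differed between the fractions for 3 members by the interaction test in limma-voom, with 3 samples in each of the 4 groups. For Smad3 the β-cell change was the lower one (-1.99 on the log2 scale, adjusted p = 0.00158), a call kept in all 22 alternatives that could be fitted. Zyx had -1.35 (adjusted p = 0.00253), an interaction called in all 22. Its fractions changed in opposite directions, though the call of its β-cell fall was lost in 9 of 23 alternatives. Igfbp4 had -1.40 (adjusted p = 0.0253) and was called in 16 of 22. All 3 rose in non-β-cells beside endothelial and mesenchymal markers and higher summed acinar and duct markers, whose part was not tested.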

How the results depend on the processing

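Over 23 alternatives (22 for the interaction) the number of members called stayed at 2 to 4 for age in β-cells, 6 to 9 for age in non-β-cells, 7 to 8 and 9 to 10 for the fractions at 4 and 8 weeks, and 2 to 4 for the interaction, and no member result changed direction while called. Of the comparisons of members with alternatives, 1098 kept their status, whether called or not called, 35 lost a call and 7 gained a call. The number of all genes called moved more: for age in β-cells from 2799 to 5382 with quality weights and 1695 to 3128 without single samples (1695 to 1734 without any 8-week β-cell sample), and for the interaction from 800 to 1562 with DESeq2, 2384 with quality weights, 1468 without both 4-week samples numbered 3, and 455 to 979 without single samples (455 to 510 without any 8-week β-cell sample, 4-week non-β-cell sample 1 or 8-week non-β-cell sample 3). The cause was not tested. Other scalings moved the median of all genes by at most 0.046 on the log2 scale. Whether equal replicate numbers pair samples was not settled, since the labels do not say what a number marks. Deviations from group means were correlated between samples of equal number. Between the fractions at the same age these correlations were all positive, at 0.008 to 0.31, and between ages they were -0.0063 to 0.12. In each pair of groups 3 to 5 of 6 samples correlated best with their own number, above the 2 of 6 that random matching would give. These values lean towards pairing, most of them weakly. With the replicate block the interaction count of all genes was 2080 and that of Ldha was 1.70 (adjusted p = 0.000832), past the threshold. It changed no other member call. Sample quality weights also brought that interaction past it (1.91, adjusted p = 0.026). Rest and Mgst1 in β-cells rest on few counts, so changes there were not detectable unless large.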
